A study of Homo sapiens with 2 samples.

Results

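Of the 30687 cell barcodes with at least 500 unique molecular identifiers (UMIs) in the 2 libraries of this series, 877 drew at least 10% of their UMIs from genes encoded by the mitochondrial genome. These high-mitochondrial barcodes were chosen by that share alone, with no upper limit, and all 877 entered the main comparisons below. They made up 402 of 16468 WT barcodes, or 2.44% (95% Clopper-Pearson interval 2.21 to 2.69), and 475 of 14219 KO barcodes, or 3.34% (3.05 to 3.65). Their nuclear-encoded RNA was compared, after all mitochondrial UMIs had been taken out of the totals, with that of reference barcodes of the same library in which 3% to 8% of UMIs were mitochondrial. There were 11862 WT and 10973 KO reference barcodes.

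The series holds 1 library of WT H1 cells (WA01, a human embryonic stem cell line) and 1 library of H1 cells made homozygous KO for ZNF263, a zinc finger transcription factor, with Cas9; both were cultured alike and no other treatment is named. Whether the KO line came from a single clone is not given in the sources used here. Cells were released with TrypLE and stained with a viability dye, and polyadenylated RNA was caught on barcoded beads in microwells. The question put to the barcodes here was which nuclear genes differ in relative level when the mitochondrial share is high, and whether they do so in both genotypes.

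The mitochondrial genome encodes subunits of respiratory complexes I, III and IV and of ATP synthase, together with the ribosomal and transfer RNAs that translate them. The remaining subunits of those complexes and all proteins of the mitochondrial ribosome are encoded in the nucleus, made on cytosolic ribosomes and imported. In single-cell work a high mitochondrial share is commonly used as a filter, because a cell with a torn plasma membrane can lose cytosolic RNA while mitochondria stay behind, and cells also differ in mitochondrial content with their state. Human embryonic stem cells divide fast, rely strongly on glycolysis and carry little cytoplasm.

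With 1 library per genotype no test between genotypes was possible, and barcodes of 1 library are not replicates, so no p-value is given. Each library served instead as a separate look at the same comparison. Levels are in CPM, that is, counts per 1000000 nuclear-encoded UMIs: the UMIs of a gene were summed over barcodes and divided by the summed nuclear-encoded UMIs of those barcodes. Differences are log2 ratios of high-mitochondrial over reference barcodes, given as a WT and a KO value, with exact 95% intervals that cover counting error only. A gene is called higher or lower where its intervals lie on the same side of 0 in both libraries, and 1.5-fold changes are counted separately. The libraries held 60578040 WT and 54559376 KO UMIs over 842407 and 841049 barcodes, so barcodes of at least 500 UMIs carried 22.4% and 20.9% of all UMIs. Doublets were not removed, and 448 barcode sequences of at least 500 UMIs occurred in both libraries, 10 of them high-mitochondrial in WT and 10 in KO.

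The high-mitochondrial barcodes were not shallow. Their median was 802 UMIs in WT and 876 in KO, against 643 and 635 in the reference. Without mitochondrial UMIs the medians were 688 against 612 in WT, a ratio of 1.12, and 763 against 602 in KO, a ratio of 1.27. They also held more nuclear genes, with medians of 499 against 468 and of 511 against 446. A median high-mitochondrial barcode therefore held more nuclear as well as more mitochondrial UMIs than a median reference barcode, although the minimum of 500 UMIs in all admits barcodes with fewer nuclear UMIs when the mitochondrial share is high. Barcodes under 1% mitochondrial UMIs were also deeper than the reference, with medians of 999 nuclear UMIs in WT and 914 in KO. At 1% to 3% the medians were 696 and 742. A greater nuclear depth than the reference was therefore not confined to a high mitochondrial share.

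The mitochondrial share formed 1 continuous tail with no second peak, as the plot of shares shows. The members' median share was 11.7% in both libraries, and the highest was 62.1% in WT and 53.1% in KO. Just outside the threshold, 221 WT and 229 KO barcodes had 9% to 10%, and just inside it 126 and 149 had 10% to 11%. Only 47 WT and 50 KO barcodes reached 20%, and their median nuclear depth was 479 and 484 UMIs. The KO library had the higher median share, with a median over all barcodes of at least 500 UMIs of 5.004% against 4.37% in WT, and 5.20% against 4.64% in barcodes of 10 to 100 UMIs. The larger number of KO barcodes above a fixed 10% stands beside that offset of the median, and its part was not tested.

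**Figure D1:**
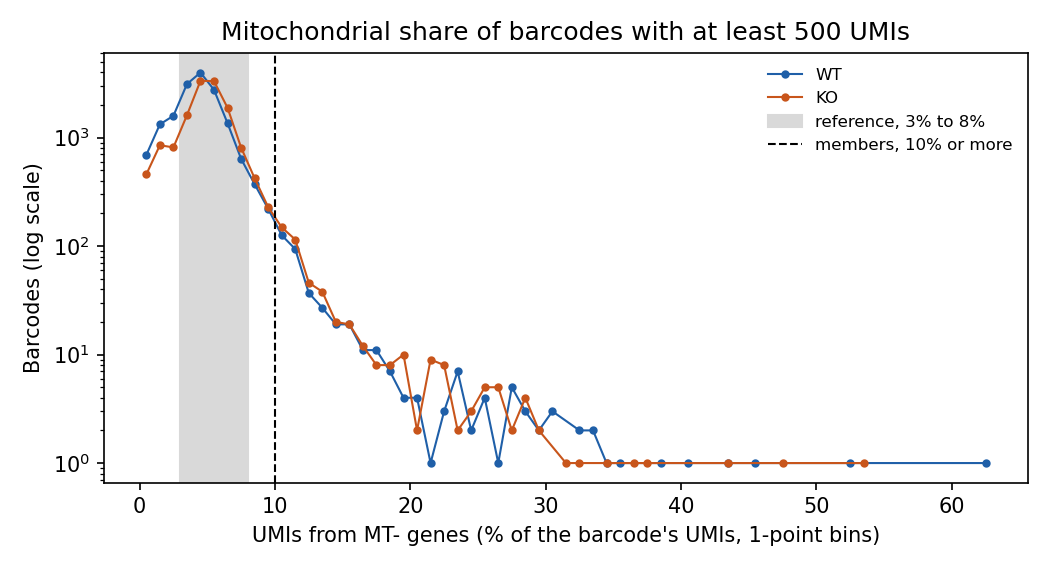
Number of barcodes (log scale) with at least 500 UMIs in each 1-point bin of mitochondrial share (x axis, % of the barcode's UMIs) in the WT and KO libraries. Grey marks the reference range and the dashed line the 10% threshold, above which barcodes thin out toward the highest shares of 62.1% in WT and 53.1% in KO.

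The make-up of the mitochondrial RNA is a description of the members, since the rule used these UMIs. MT-RNR2, the large ribosomal RNA of the mitochondrion, was the most abundant mitochondrial gene in 237 of 402 WT and 347 of 475 KO members. Its share of mitochondrial UMIs was nevertheless lower in the members than in the reference, at 19.9% against 23.8% in WT and 22.4% against 28.5% in KO. The shares moved toward messenger RNAs: MT-CO3, a core subunit of cytochrome c oxidase, made up 13.8% against 12.3% in WT and 12.9% against 10.6% in KO.

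The 3 marker genes of these barcodes did not all shift alike within the mitochondrial RNA. MT-ATP6, a subunit of the proton channel of ATP synthase, took 7.17% of mitochondrial UMIs in WT members against 6.10% in the reference, and 8.37% against 7.04% in KO. MT-ND3, a small subunit of complex I, took 2.503% against 2.12% in WT and 4.31% against 3.44% in KO. MT-CO1, the catalytic subunit of cytochrome c oxidase, took 6.85% against 7.11% in WT and 6.26% against 6.34% in KO, so its share was not higher. MT-ND6, the complex I subunit encoded on the other strand, also took a smaller share, at 2.40% against 3.13% and 1.55% against 2.25%. In barcodes of 10 to 100 UMIs, which stand for the RNA spread over shallow barcodes, MT-RNR2 took 24.5% in WT and 28.5% in KO, close to the reference and not to the members.

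The nuclear genome carries copies of mitochondrial sequence, and reads of a mitochondrial transcript can be assigned to them. The best measured is MTATP6P1, a pseudogene on chromosome 1 (positions 633696 to 634376 of GRCh38, plus strand) that copies MT-ATP6 (positions 8527 to 9207 of the mitochondrial genome, plus strand). Both annotated transcripts are 681 bases long and differ at 10 positions, an identity of 98.5%, with a run of 141 identical bases. The first 300 bases of each are printed, 5′ to 3′, because they show how few bases tell the 2 genes apart. Capitals mark the 5 differing bases in this stretch, which are, counted from the first base with the base of MT-ATP6 first, G19A, C129T, A151C, A175G and A192G. Sequences are from the GENCODE transcripts of release 29.
MT-ATP6: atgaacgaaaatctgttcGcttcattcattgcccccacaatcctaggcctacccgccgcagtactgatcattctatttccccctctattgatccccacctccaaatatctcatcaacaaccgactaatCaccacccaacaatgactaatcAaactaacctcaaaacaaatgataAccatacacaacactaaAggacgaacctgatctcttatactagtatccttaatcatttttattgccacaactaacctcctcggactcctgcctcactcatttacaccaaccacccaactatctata
MTATP6P1: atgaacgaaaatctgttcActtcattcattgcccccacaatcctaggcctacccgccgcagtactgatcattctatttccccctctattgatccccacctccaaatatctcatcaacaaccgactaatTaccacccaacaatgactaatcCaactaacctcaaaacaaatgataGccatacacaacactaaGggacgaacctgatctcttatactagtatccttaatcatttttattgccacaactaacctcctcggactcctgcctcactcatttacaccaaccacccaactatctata

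MTATP6P1 followed the mitochondrial share. Its level was 902 CPM in WT members against 282 in the reference, and 1302 against 398 in KO, log2 ratios of 1.68 (1.502 to 1.85) and 1.71 (1.58 to 1.84). Of all UMIs assigned to MT-ATP6 or its copy, the copy took 7.33% in WT members (6.56 to 8.17) and 8.10% in the WT reference (7.79 to 8.41). In KO it took 9.28% (8.57 to 10.0) and 9.19% (8.88 to 9.51). The copy was thus a near-constant fraction of MT-ATP6, and its higher level cannot be told apart from the rule. All 7 measured copies, where measured means a mean of at least 5 CPM, were at least 1.5-fold higher in both libraries, where 3.4% of the 10352 genes at that level were higher and 5.3% lower by as much, for example MTCO2P12 at 1.68 and 2.24 and MTCO3P12 at 3.15 and 1.47. Those 6 other copies rest on 3 to 9 UMIs in the members of a library, and as pseudogenes their counts are uncertain.

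Among 5977 nuclear genes that averaged 20 CPM or more, differences were mostly small. In both libraries 83 genes (1.39%) were at least 1.5-fold higher in the members and 182 (3.05%) at least 1.5-fold lower. With ratios taken relative to the median of all genes, which was -0.05 in WT and -0.08 in KO, these counts were 118 and 132. Intervals lay above 0 in both libraries for 174 genes (2.91%) and below 0 for 183 (3.06%). A typical interval was wide, with a median half-width of 0.72 in WT and 0.67 in KO, so that a 1.5-fold change was within counting error for most genes. At a mean of at least 100 CPM, where 1628 genes were left, 156 (9.58%) lay above and 149 (9.15%) below 0 in both libraries, and only 6 (0.369%) and 19 (1.17%) passed 1.5-fold. Over the 10352 genes of at least 5 CPM, the level at which list members count as measured, 177 (1.71%) were called higher and 187 (1.81%) lower. Lists of genes below are described by the number of measured members called and by their median, to be read against these shares. The share called was larger among more abundant genes, so for lists of such genes the shares at 100 CPM are the nearer ones.

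**Figure D2:**
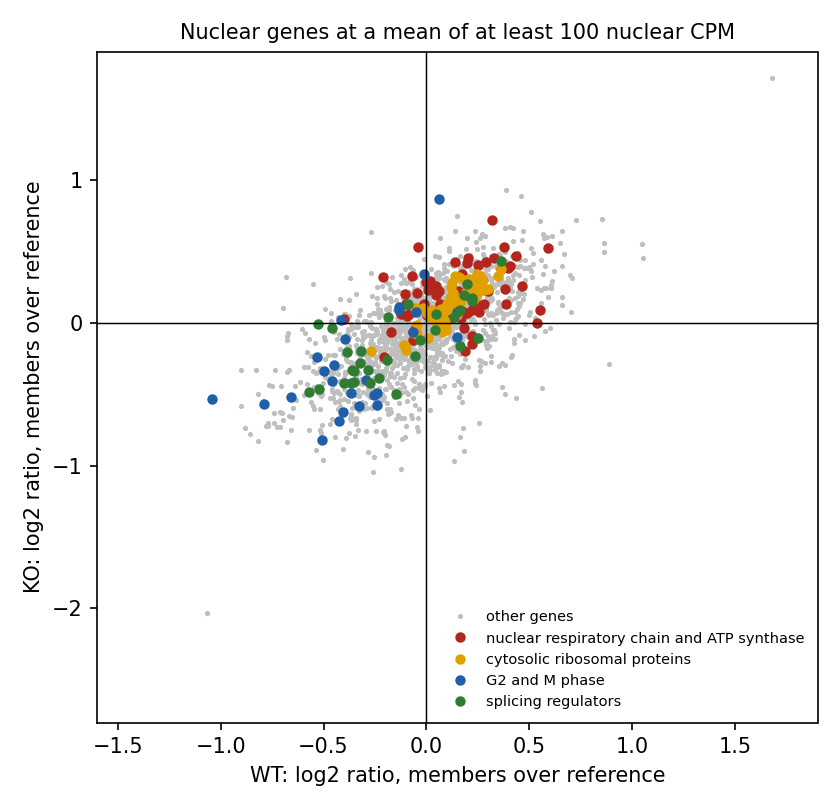
Log2 ratio of nuclear CPM, high-mitochondrial over reference barcodes, in WT (x axis) and KO (y axis) for 1627 of 1628 genes that averaged 100 CPM or more; each point is a gene, and 1 gene with no UMI in the KO members is not drawn. Respiratory chain, ATP synthase and ribosomal protein genes lie mostly to the upper right of 0, G2 and M phase genes and splicing regulators mostly to the lower left, and the lone point at the top right is MTATP6P1.

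Nuclear genes of the respiratory chain were higher in the high-mitochondrial barcodes of both libraries, by a small amount. Complex I, which passes electrons from NADH to ubiquinone, had 5 of 36 measured nuclear subunits called higher and 0 lower, with a median of 0.18 in WT and 0.22 in KO. NDUFA11 stood at 341 CPM in WT members against 258 in the reference and at 360 against 273 in KO, a log2 ratio of 0.40 in both (0.12 to 0.67 and 0.16 to 0.63). NDUFB9 stood at 0.38 and 0.53, and NDUFB7 at 0.36 and 0.38. The other 2 called, NDUFA13 and NDUFS5, were at 0.29 and 0.42 and at 0.25 and 0.13. NDUFS3 did not pass, at 0.33 (-0.04 to 0.67) in WT and 0.45 (0.15 to 0.73) in KO. Over the summed UMIs of the list, complex I was 0.16 (0.12 to 0.21) higher in WT and 0.25 (0.21 to 0.28) in KO.

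Complexes II to IV had the largest share of called subunits of the respiratory complexes, 10 of 29 higher and 0 lower, with medians of 0.20 and 0.13. COX6A1, a regulatory subunit of cytochrome c oxidase, stood at 582 CPM against 386 in WT and 573 against 398 in KO, log2 ratios of 0.59 (0.38 to 0.80) and 0.52 (0.33 to 0.71). That is 1.51-fold in WT and 1.44-fold in KO. COX5B stood at 0.43 and 0.47 and COX4I1, the subunit around which the nuclear part of the oxidase assembles, at 0.40 and 0.38. UQCRQ, a small subunit of complex III, was at 0.47 and 0.25. ATP synthase had 5 of 18 nuclear subunits and regulators higher and 0 lower, with medians of 0.15 and 0.21. ATP5MC3, one of the genes for the membrane ring, stood at 0.25 and 0.27, and ATP5IF1, an inhibitor of the enzyme's reverse reaction, at 0.38 and 0.24.

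Other nuclear genes of the mitochondrion were less uniform. Of 53 measured proteins of the mitochondrial ribosome 4 were called higher and 0 lower, with medians of 0.10 and 0.16: MRPL34 at 0.55 and 0.71, MRPL52 at 0.42 and 0.47, MRPL57 at 0.38 and 0.41, and MRPS21 at 0.28 and 0.33. Of 23 genes of mitochondrial transcription, RNA handling and translation 2 were higher, TUFM, the mitochondrial elongation factor, at 0.32 and 0.45 and SLIRP at 0.32 and 0.17. LRPPRC, the partner of SLIRP in holding mitochondrial messenger RNA stable, stood at -0.69 (-1.36 to -0.10) and -0.34 (-0.89 to 0.16) and was not called. Of 30 import and carrier genes CHCHD2, PHB2 and TIMM13 were higher, at 0.48 and 0.44, 0.48 and 0.30, and 0.37 and 0.27. HSPD1, the chaperonin of the matrix, was lower, at 978 CPM against 1209 in WT and 931 against 1303 in KO, log2 ratios of -0.31 (-0.47 to -0.15) and -0.48 (-0.63 to -0.34). The citrate cycle, which feeds the chain, had 0 of 15 genes called in either direction and medians of -0.08 and -0.05. Summed, the mitochondrial ribosome was at 0.16 and 0.18, mitochondrial gene expression at 0.20 and 0.14, import and carriers at 0.06 (0.001 to 0.11) and 0.03 (-0.01 to 0.08), and the citrate cycle at -0.06 and -0.06 with intervals that include 0.

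Cytosolic ribosomal proteins had more genes called than any other list. Of 76 measured genes 45 were called higher and 4 lower, with medians of 0.13 and 0.12. Summed, they took 24.4% of the nuclear UMIs of the median WT member against 22.5% of the median reference barcode, and 28.2% against 25.3% in KO. RPL29 stood at 2179 CPM against 1694 in WT and 2122 against 1634 in KO, log2 ratios of 0.36 (0.26 to 0.47) and 0.38 (0.28 to 0.47). The 4 lower genes, named after their values were seen, were RPL22, RPL5, RPL6 and RPS6, at -0.10 to -0.27 in WT and -0.15 to -0.19 in KO. Many ribosomal proteins have processed pseudogenes, so single values are uncertain where reads are shared.

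The factors that load ribosomes did not move with the ribosomal proteins. Of 38 translation factors 1 was higher and 3 lower, with medians of -0.04 and -0.07. EIF4B, a helper of the helicase of translation initiation, stood at 303 CPM against 390 in WT and 249 against 392 in KO, log2 ratios of -0.37 (-0.66 to -0.08) and -0.66 (-0.94 to -0.38). PABPC1, which binds poly(A) tails, stood at -0.34 and -0.58, and EEF1A1, the elongation factor, at -0.25 and -0.27. NACA was at 0.22 and 0.16.

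Host genes of small nucleolar RNAs, whose introns carry the guides for ribosomal RNA modification and whose spliced transcripts are decayed during translation, were among the highest. Of 16 measured 5 were called higher and 0 lower, with medians of 0.31 and 0.37. SNHG12 stood at 38.2 CPM (13 UMIs) against 19.3 in WT and 45.3 CPM (20 UMIs) against 20.7 in KO, log2 ratios of 0.98 (0.04 to 1.80) and 1.13 (0.38 to 1.80). SNHG1 stood at 0.86 and 0.50, SNHG25 at 0.91 and 0.76, SNHG3 at 0.39 and 0.93 and SNHG5 at 0.30 and 0.18. No transcript GC or length value was available for any gene of this list.

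RNAs held in the nucleus were higher in the members as a summed list, at 0.29 (0.17 to 0.41) in WT and 0.24 (0.12 to 0.35) in KO. Of 13 measured nuclear-retained RNAs 2 were called higher and 0 lower, with medians of 0.25 and 0.12. LINC00678 stood at 188 CPM against 90.6 in WT and 129 against 94.2 in KO, log2 ratios of 1.05 (0.66 to 1.42) and 0.45 (0.04 to 0.84), and MIAT at 0.29 and 0.60. MALAT1, the abundant speckle RNA, was low in all groups, at 70.5 CPM against 86.5 in WT and 49.8 against 54.0 in KO, with log2 ratios of -0.30 (-0.95 to 0.29) and -0.12 (-0.81 to 0.50). Among 28 messenger RNAs with detained introns or speckle proteins, CCNL2, a cyclin of the splicing machinery, was higher at 0.86 and 0.73 and RBM25 lower at -0.29 and -0.25, though RBM25 stood at 0.03 and 0.09 relative to genes of like GC content and length.

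Genes of cell division were lower in the high-mitochondrial barcodes. Of 54 measured genes of G2 and M phase 0 were called higher and 9 lower, with medians of -0.36 in WT and -0.34 in KO, and the summed list was at -0.33 (-0.39 to -0.27) and -0.29 (-0.35 to -0.23). HMGB2, a chromatin protein that peaks late in the cycle, stood at 250 CPM against 432 in WT and 238 against 353 in KO, log2 ratios of -0.79 (-1.12 to -0.48) and -0.57 (-0.87 to -0.29). TPX2, which nucleates spindle microtubules, stood at -1.04 and -0.53, CENPF, a kinetochore protein, at -0.33 and -0.58, and TOP2A, which untangles sister chromatids, at -0.24 and -0.49; these 3 were named after their values were seen. The median barcode drew 0.601% of its nuclear UMIs from the list in WT members against 0.813% in the reference, and 0.512% against 0.679% in KO.

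Genes of S phase were lower as a summed list, at -0.24 (-0.31 to -0.17) in WT and -0.26 (-0.33 to -0.20) in KO. Of 36 measured 0 were called higher and 3 lower, with medians of -0.23 and -0.30. CLSPN, which relays replication stress to CHEK1, stood at 85.2 CPM against 148 in WT and 92.8 against 136 in KO, log2 ratios of -0.79 (-1.38 to -0.26) and -0.55 (-1.04 to -0.10). USP1 stood at -0.63 and -0.54, and NASP, a histone chaperone, at -0.36 and -0.47. No phase was assigned to single barcodes, because a median barcode held only a few UMIs of either list.

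Chromatin proteins of the high mobility group were lower too. Of 14 measured 6 were called lower and 0 higher, with medians of -0.25 and -0.39; HMGB2 counts here and among the G2 and M genes. HMGA2, an architectural protein of undifferentiated cells, stood at 112 CPM against 205 in WT and 90.6 against 151 in KO, log2 ratios of -0.88 (-1.38 to -0.42) and -0.74 (-1.23 to -0.28). HMGN2 stood at -0.55 and -0.60, UBTF, the ribosomal RNA gene activator, at -0.55 and -0.58, HMGB1 at -0.28 and -0.29, and SSRP1 at -0.26 and -0.47. Among 14 histone genes H4C3 alone was called, at -0.51 and -0.72. Polyadenylated RNA was captured, and replication-dependent histone transcripts mostly lack a poly(A) tail.

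Regulators of splicing were more often called lower than higher. Of 36 measured 11 were called lower and 3 higher, with medians of -0.21 and -0.20. HNRNPU stood at 529 CPM against 785 in WT and 505 against 707 in KO, log2 ratios of -0.57 (-0.79 to -0.36) and -0.49 (-0.69 to -0.29). HNRNPC was at -0.52 and -0.47 and HNRNPM at -0.40 and -0.42; these proteins coat nascent RNA. The 3 higher genes, named after their values were seen, were SRSF7 at 0.36 and 0.43 and the small core proteins SNRPG at 0.20 and 0.27 and SNRPD2 at 0.22 and 0.15. The list joins long and short transcripts, and transcript features are given further on.

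Cytoskeleton genes were more often called lower than higher. Of 35 actin and tubulin genes 7 were called lower and 1 higher, with medians of -0.14 and -0.15. TPM3, a tropomyosin, stood at 532 CPM against 834 in WT and 616 against 932 in KO, log2 ratios of -0.65 (-0.87 to -0.44) and -0.60 (-0.78 to -0.42), while MYL12B, a myosin light chain, was at 0.46 and 0.44. Of 55 genes of secreted or membrane proteins, which are translated at the endoplasmic reticulum, 4 were higher and 0 lower, with medians of 0.06 and 0.02 and sums at 0.09 (0.04 to 0.13) and 0.01 (-0.03 to 0.06). EPCAM, the adhesion protein of epithelial and pluripotent cells, stood at 191 CPM against 124 in WT and 317 against 246 in KO, log2 ratios of 0.62 (0.24 to 0.98) and 0.37 (0.11 to 0.61). CD63, CD81 and the sodium pump subunit ATP1B3 were the others, at 0.50 and 0.37, 0.42 and 0.34, and 0.45 and 0.39. EPCAM was also the 1 gene of 18 measured epithelial junction genes that was called, and that list had medians of 0.18 and 0.13.

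Few stress genes were called, but heat shock genes were lower as a summed list. Targets of ATF4, the transcription factor of the mitochondrial and integrated stress responses, had 0 of 23 called and medians of 0.26 and 0.08; PCK2, the mitochondrial PEPCK, stood at 1.18 (0.59 to 1.72) in WT and 0.41 (-0.14 to 0.93) in KO. Immediate early genes, which cell dissociation can induce, had 0 of 11 called. Of 25 oxidative stress genes PRDX4, a peroxiredoxin of the endoplasmic reticulum, was higher at 0.71 and 0.31. Heat shock genes had 3 of 16 lower and 0 higher: HSP90AA1 at -0.28 and -0.44, HSP90AB1 at -0.25 and -0.34 and DNAJA1 at -0.34 and -0.36. Summed, heat shock genes stood at -0.21 (-0.26 to -0.15) in WT and -0.29 (-0.34 to -0.24) in KO. ATF4 targets summed to 0.20 (0.08 to 0.31) in WT and -0.03 (-0.13 to 0.08) in KO, and oxidative stress genes to 0.06 (-0.01 to 0.13) and 0.14 (0.08 to 0.20). Immediate early genes rest on 82 WT and 108 KO UMIs in the members, so moderate changes in them were not detectable at this depth.

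Glycolysis, the proteasome and sterol synthesis showed little. Glycolysis had 1 of 18 genes called, GAPDH, at 0.13 and 0.12, with medians of 0.04 and -0.04. Of 33 proteasome subunits PSMD11 and PSMD1 of the regulatory particle were lower, at -0.74 and -0.63 and at -0.37 and -0.28, and PSMB1 of the core was higher at 0.21 and 0.17. HMGCS1 was the 1 gene called of 21 in cholesterol synthesis, at -0.46 and -0.37.

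**Figure D3:**
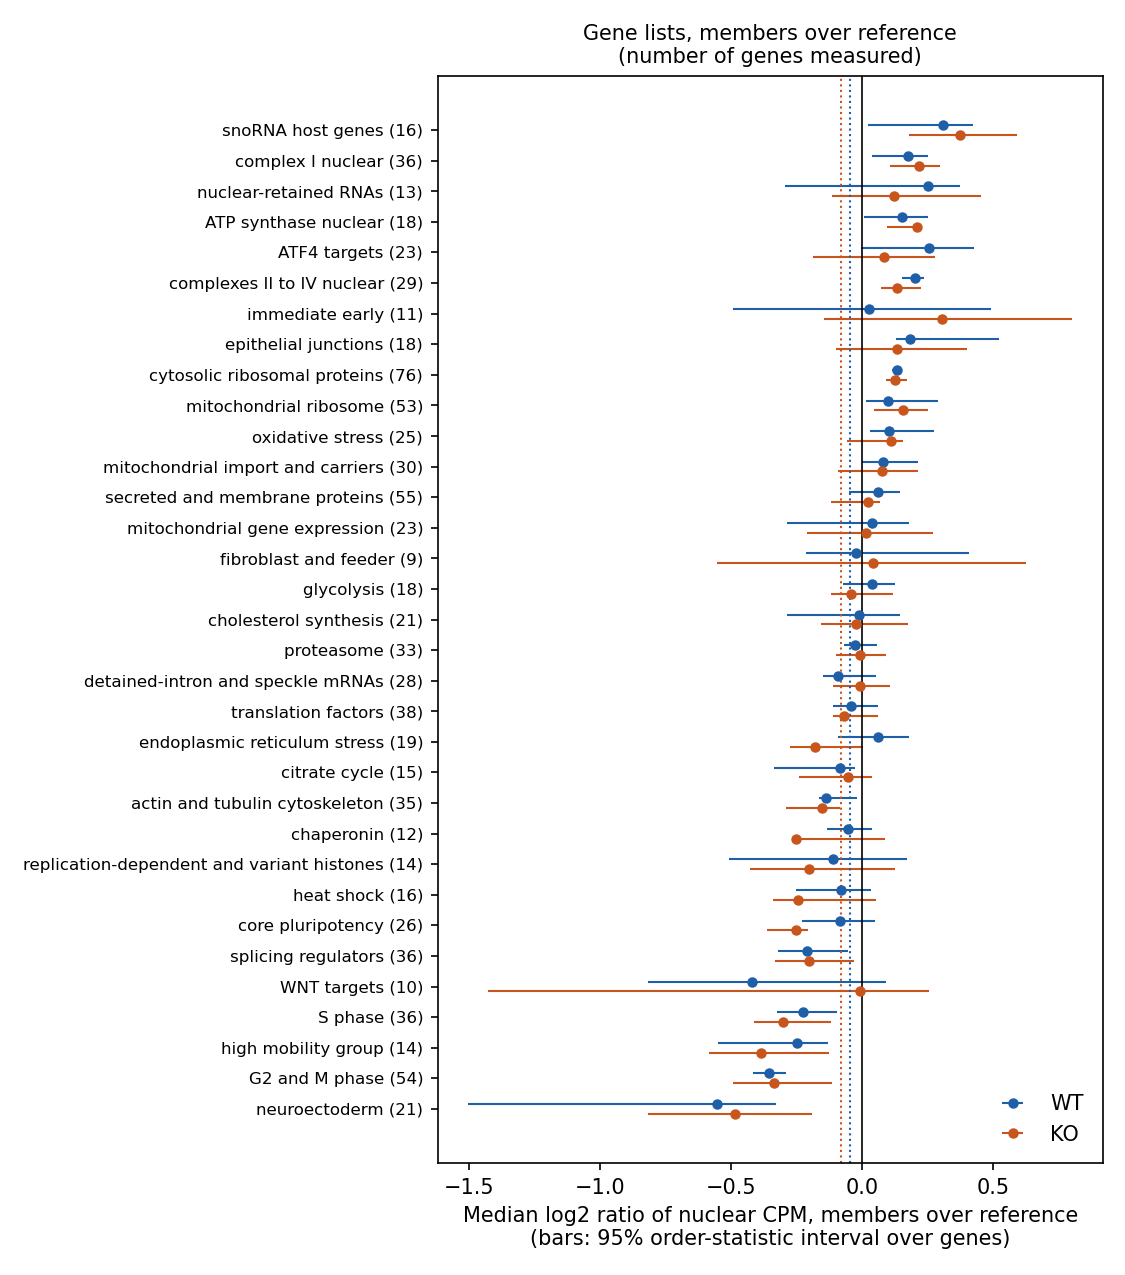
Median log2 ratio of nuclear CPM, high-mitochondrial over reference barcodes (x axis), of each list with at least 6 measured genes other than the copies of mitochondrial genes and 1 list not reported here; the number measured follows each name. Bars are 95% order-statistic intervals over the genes, dotted lines the medians of all genes (-0.05 in WT, -0.08 in KO), and snoRNA host genes have the highest median in both libraries, lists of the respiratory chain lie above both dotted lines and lists of cell division below them.

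Core pluripotency genes were detected in the high-mitochondrial barcodes, near the reference level in WT and below it in KO. Of 30 core pluripotency genes 29 had UMIs in the members of each library, and the list summed to 6247 CPM against 6403 in WT and 6633 against 7869 in KO, log2 ratios of -0.04 (-0.10 to 0.03) and -0.25 (-0.30 to -0.19). POU5F1 stood at 58.7 CPM against 42.5 in WT and 92.8 against 71.2 in KO, log2 ratios of 0.47 (-0.26 to 1.11) and 0.38 (-0.11 to 0.84). SOX2 was at 0.06 (-0.19 to 0.30) and -0.21 (-0.47 to 0.05), and NANOG rests on 6 WT and 4 KO UMIs. None of these 3 was called. In the list 2 genes were called lower, the RNA-binding proteins IGF2BP1 at -0.57 and -0.75 and IGF2BP3 at -0.70 and -1.10, and TERF1 was higher at 0.47 and 0.20.

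Markers of other cell types were scarce, but some stood higher in the WT members than in their reference. In the WT members 8 of 13 primitive streak, 8 of 14 endoderm, 12 of 17 mesoderm and 14 of 17 blood and endothelium markers were at 0 UMIs, and in KO 8, 12, 11 and 15. Each of these lists summed to 147 CPM or less in the members of a library. Primitive streak markers summed to 103 CPM against 61.8 in WT, 0.73 (0.20 to 1.23), endoderm markers to 55.8 against 30.9, 0.85 (0.10 to 1.52), and blood and endothelium markers to 47.0 against 20.2, 1.22 (0.38 to 1.96), from 35, 19 and 16 UMIs. In KO they were at -0.55, -0.47 and -0.66, with intervals that include 0, from 6, 7 and 5 UMIs. Mesoderm markers were at 0.06 and -0.31, with intervals that include 0. The part of these markers in the other differences was not tested. Fibroblast and feeder markers summed to 611 CPM against 490 in WT and 648 against 567 in KO, of which THY1, also expressed by pluripotent stem cells, gave 382 and 491 CPM and was called at 0.41 and 0.25. Neuroectoderm genes were lower by median, at -0.55 and -0.49, with 0 of 21 called. Summed, they stood at 1439 CPM against 2094 in WT, -0.54 (-0.67 to -0.41), and at 935 against 1047 in KO, -0.16 (-0.31 to -0.02). Barcodes under 1% mitochondrial UMIs were also lower than the reference for this summed list in WT, at -0.86 (-0.96 to -0.77). In KO they were at -0.09 (-0.22 to 0.04). A lower level of neuroectoderm genes in WT was therefore not confined to a high mitochondrial share. NR2F1, an orphan nuclear receptor, stood at 14.7 CPM (5 UMIs) against 64.4 in WT and rests on 2 UMIs in the KO members. CCND1, counted with 10 measured WNT targets, was the 1 gene called there, at -0.72 and -1.03.

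The genes with the largest differences were thinly counted. After MTATP6P1 the highest were GPX3, SNHG12, PIF1, CD320, ABCB6, GUSB, P3H3, OLFML3 and PGGHG, at 0.80 to 1.102 in WT and 0.80 to 1.15 in KO, from 11 to 38 UMIs in the members of a library. PIF1, a DNA helicase with a mitochondrial form, stood at 58.7 CPM against 29.8 in WT and 86.1 against 38.8 in KO, log2 ratios of 0.98 (0.25 to 1.64) and 1.15 (0.62 to 1.64). GPX3, a secreted glutathione peroxidase, stood at 41.1 against 20.6 and 45.3 against 21.5 CPM. CD320, the cobalamin uptake receptor, was at 1.07 and 0.91, and ABCB6, a porphyrin transporter, at 1.102 and 0.90.

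The lowest were IGFBP5, MAN1A2, SBDS, EPB41, PDE7A, PRTG, LIX1, ENC1, IFT81 and TOPORS. PRTG, an immunoglobulin superfamily receptor of early neural development (chromosome 15, 55611544 to 55743152 of GRCh38), had the most UMIs of these. It stood at 244 CPM (83 UMIs) against 511 in WT and at 24.9 CPM (11 UMIs) against 102 in KO, log2 ratios of -1.07 (-1.40 to -0.75) and -2.04 (-3.04 to -1.19). IGFBP5, a secreted binder of insulin-like growth factors (chromosome 2, 216672105 to 216695549), stood at 38.2 CPM (13 UMIs) against 103 and 6.79 CPM (3 UMIs) against 41.1, log2 ratios of -1.43 (-2.35 to -0.65) and -2.60 (-4.88 to -1.04). EPB41, which ties spectrin to the membrane, was at -1.82 and -1.21, and TOPORS, a ubiquitin and SUMO ligase, at -1.58 and -0.93. PRTG and IGFBP5 also had lower reference levels in KO than in WT, so their KO ratios rest on fewer UMIs.

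How the lists changed along the mitochondrial share was read from bins of barcodes, set against the 3% to 8% barcodes. Summed levels of complexes II to IV were already higher at 8% to 10%, by 0.17 in WT and 0.15 in KO, and stood at 0.25 in both libraries at 10% to 12%. At 15% to 20% they were at 0.18 (0.07 to 0.29) and 0.17 (0.07 to 0.27), and at 20% or more at -0.08 (-0.24 to 0.07) in WT and -0.01 in KO. Complex I likewise stood at 0.18 and 0.22 at 15% to 20%. Cytosolic ribosomal proteins stood at 0.15 in both libraries at 10% to 12%, at 0.07 (0.04 to 0.10) and 0.02 (-0.003 to 0.05) at 15% to 20%, and at 0.01 and -0.01 at 20% or more. Intervals above 0 in both libraries thus ran from 8% to 20% for complex I and complexes II to IV and from 8% to 15% for ribosomal proteins, and none of these lists had one in the 47 and 50 barcodes of the highest bin.

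Genes of G2 and M phase were lower from 8% to 20%, at -0.28 and -0.29 in the 8% to 10% bin and -0.33 and -0.29 at 10% to 12%. At 20% or more they stood at -0.23 (-0.45 to -0.03) in WT and -0.04 (-0.25 to 0.17) in KO. High mobility group genes were at -0.34 in both libraries at 15% to 20%, and at -0.34 (-0.60 to -0.10) in WT and -0.24 (-0.49 to 0.004) in KO at 20% or more. Copies of mitochondrial genes rose through every bin above the reference apart from a dip in WT at 12% to 15%, from 1.17 and 1.08 at 8% to 10% to 2.60 and 2.80 at 20% or more. Barcodes just below the threshold did not stand apart from those just above it: at 9% to 10% and 10% to 11% ribosomal protein genes were at 0.13 and 0.15 in WT and 0.12 and 0.18 in KO. Barcodes under 1% mitochondrial UMIs were also higher than the 3% to 8% barcodes for several of these lists: ribosomal protein genes at 0.17 and 0.09, ATP synthase at 0.19 and 0.18, the mitochondrial ribosome at 0.24 and 0.16, and complexes II to IV at 0.11 (0.09 to 0.14) and 0.03 (-0.002 to 0.06). A higher level of these lists was therefore not confined to a high mitochondrial share. High mobility group genes, by contrast, were at 0.11 and 0.06 under 1%.

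**Figure D4:**
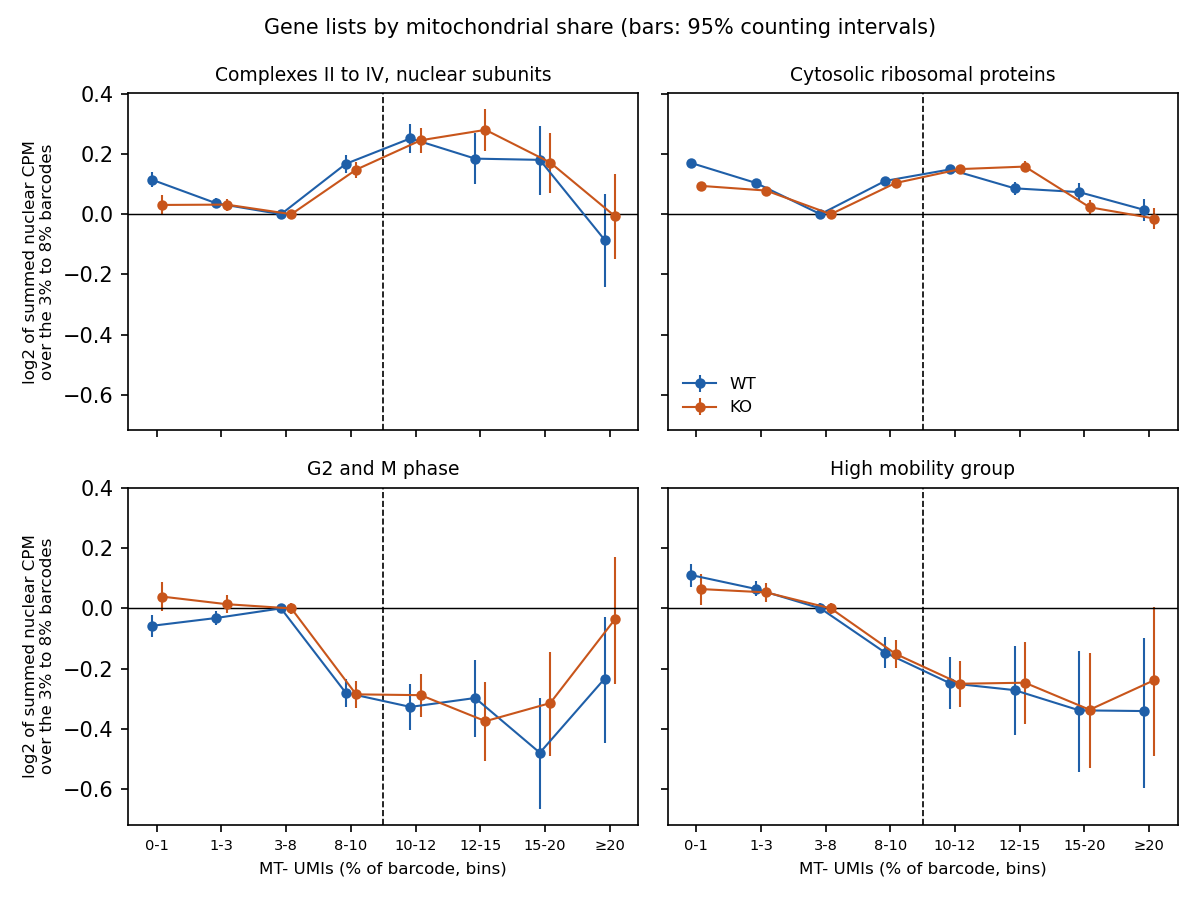
Log2 ratio of the summed nuclear CPM of 4 gene lists (y axis) in bins of mitochondrial share (x axis, % of the barcode's UMIs) over the 3% to 8% barcodes of the same library, WT and KO, with 95% counting intervals; the dashed line marks the 10% threshold. Respiratory and ribosomal protein genes lie above 0 from 8% to 15% and near 0 at 20% or more, and ribosomal protein genes also above 0 under 1%, while G2 and M phase and high mobility group genes lie below 0 from 8% to 20%.

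Transcript length and base composition moved with these differences. Both were taken from the longest protein-coding GENCODE transcript of each gene, which need not be the one expressed. Among the protein-coding genes with a GENCODE transcript, which covered 98.2% of the protein-coding genes tested, the 144 called higher had a median transcript length of 1384 bases and a GC content of 54.5%. The 176 called lower had 4098 bases and 42.3%, and all genes tested 3467 bases and 46.6%. The quintile of genes with the shortest transcripts had a median log2 ratio of 0.10 in WT and 0.13 in KO, and the quintile with the longest -0.20 and -0.27. From the lowest to the highest quintile of GC the medians went from -0.22 to 0.17 in WT and from -0.25 to 0.16 in KO. The difference along GC was also seen between the lowest and highest quintile of the shorter transcripts alone, from -0.09 to 0.21 in WT and -0.14 to 0.24 in KO, and of the longer ones, from -0.26 to 0.06 and -0.29 to -0.04. At 20% mitochondrial UMIs or more the longest quintile, summed, was higher, at 0.15 and 0.17. Under 1% the longest quintile, summed, was lower, at -0.23 in WT and -0.16 in KO, and the shortest higher, at 0.14 and 0.09. The lowest GC quintile was at -0.09 and -0.07 under 1%, and the highest at 0.06 in both libraries. A shift along length and GC was therefore not confined to a high mitochondrial share.

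**Figure D5:**
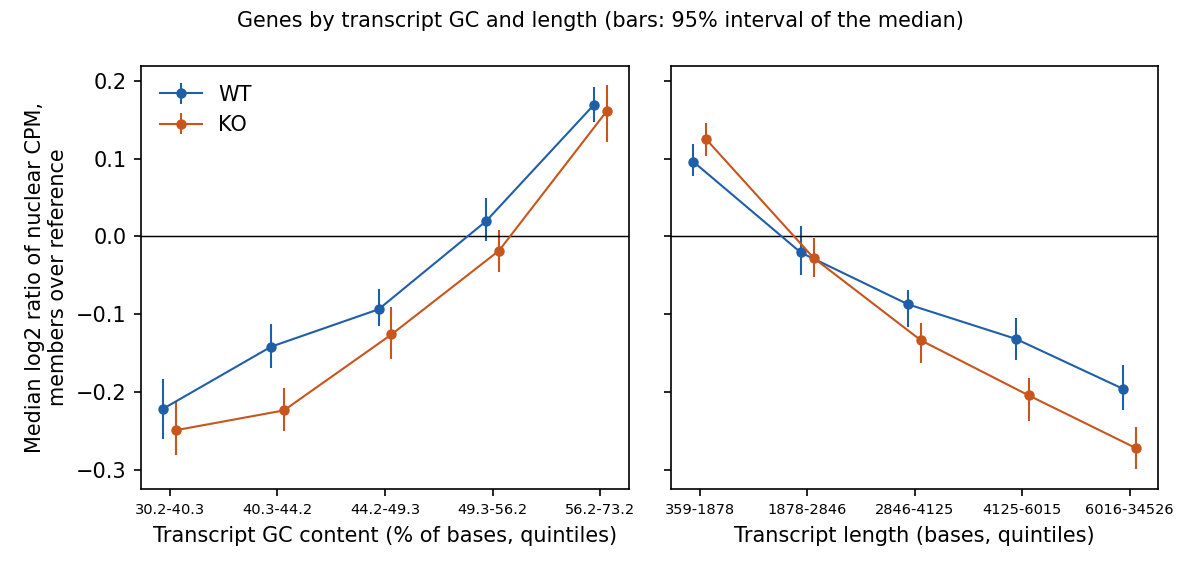
Median log2 ratio of nuclear CPM, high-mitochondrial over reference barcodes (y axis), of genes in quintiles of transcript GC content (left) and of transcript length (right), WT and KO, with 95% order-statistic intervals over genes. Medians increase with GC content and decrease with length in both libraries, from -0.22 to 0.17 along GC and from 0.10 to -0.20 along length in WT.

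The lists differ in these features of the longest annotated transcripts. Those of respiratory and ribosomal protein genes are short, with medians of 1260 bases for complex I and 1176 for ribosomal proteins. Those of G2 and M phase genes had 3107 bases and a GC content of 42.9%, against 3467 bases and 46.6% for all genes tested. Relative to genes of the same quintile of GC and of length, a setting chosen after the data were seen, complex I had medians of 0.12 and 0.15 and complexes II to IV 0.23 and 0.15. Ribosomal proteins were at 0.06 and 0.05. G2 and M phase stood at -0.21 and -0.18, S phase at -0.16 and -0.09 and high mobility group at -0.28 and -0.19, while splicing regulators were left with -0.09 and -0.02. The 1.5-fold counts became 76 higher and 74 lower.

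Depth was also set equal. Members with fewer nuclear UMIs than any reference barcode cannot be matched, which left 357 of 402 in WT and 430 of 475 in KO. Against reference barcodes drawn to the distribution of nuclear UMIs of these, the medians were 0.17 and 0.20 for complex I, 0.15 and 0.12 for ribosomal proteins, -0.35 and -0.27 for G2 and M phase and -0.26 and -0.39 for the high mobility group. The differences of these lists were about as large in these matched barcodes.

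The genotypes were then compared within the members. ZNF263 itself (chromosome 16, 3283491 to 3301401 of GRCh38) is too thinly counted there to check the label, with 3 UMIs in 402 WT members and 9 in 475 KO members, a log2 ratio of KO over WT of 1.21 (-0.79 to 3.73). In the reference it had 143 UMIs (16.4 CPM) in WT and 58 (7.60 CPM) in KO, a ratio of -1.11 (-1.58 to -0.66). The members labelled KO therefore had no fewer ZNF263 UMIs than the WT members, unlike the reference barcodes of the same libraries. Counts of 3 and 9 UMIs are too few to read a difference from, and no cause was tested. In general, a Cas9 edit of a gene need not remove its transcript. The interval of the member ratio includes 0.

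Of 5912 genes that averaged 20 CPM or more in the members, 108 (1.83%) were at least 1.5-fold higher in KO and 370 (6.26%) at least 1.5-fold lower, with intervals on that side of 0. In the reference barcodes, which hold far more UMIs, the counts were 135 of 6039 (2.24%) and 416 (6.89%). The lowest in KO members were TAF9B, EDNRB, MIXL1, WLS, CAMSAP1 and PRTG. TAF9B, a paralogue of a TFIID subunit, had 14 UMIs in the WT and 0 in the KO members, at least 6.05-fold lower against a floor of 3 UMIs over the KO members, and 351 against 12 UMIs in the reference. WLS, which carries WNT proteins to the cell surface, had 23 and 2 UMIs, a ratio of -3.90 (-7.03 to -1.88), and -3.29 in the reference. PRTG was at -3.29 (-4.35 to -2.38) in the members and -2.32 (-2.43 to -2.21) in the reference. The genotype differences of TAF9B, WLS and PRTG were thus present in the reference barcodes as well. CAMSAP1, a microtubule minus-end protein, was at -3.38 (-6.54 to -1.29) in the members and -0.53 in the reference. It was picked for its size in the members, so its smaller ratio in the reference is not evidence of a difference between the 2 kinds of barcode.

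The highest in KO members were BEND3, LCK, PLK1, MAT2A, SELENOP and B3GALT5-AS1, each with 1 to 4 UMIs in the WT members. LCK, a kinase gene counted among pluripotency genes, had 2 and 29 UMIs, a ratio of 3.48 (1.5 to 6.60) against 1.19 (0.89 to 1.49) in the reference. PLK1, a mitotic kinase, had 2 and 18 UMIs, 2.79 (0.73 to 5.95) against 0.20 (-0.08 to 0.48). Since these genes were picked for their size in the members, a smaller ratio in the reference is not evidence of a difference between the 2 kinds of barcode, and that difference was not tested. Summed over lists, ribosomal proteins had a ratio of KO over WT of 0.18 in the members and 0.17 in the reference, and G2 and M phase genes of -0.22 and -0.26. The intervals of most lists overlapped between the members and the reference. The lists that follow were picked because theirs did not, so they are not evidence of a difference between the 2 kinds of barcode. These intervals cover counting error only, with 1 library per genotype. Whether the genotype ratio of a list differs between members and reference was not tested. Neuroectoderm genes were at -0.62 (-0.81 to -0.43) in the members and -0.999 (-1.04 to -0.96) in the reference, and core pluripotency genes at 0.09 (0.01 to 0.17) and 0.30 (0.28 to 0.31). Complex I was at 0.08 (0.03 to 0.14) and 0.00 (-0.01 to 0.01), endoplasmic reticulum stress genes at -0.18 and 0.01, and ATF4 targets at -0.19 and 0.03. Blood and endothelium, the last list picked, rests on 16 WT and 5 KO UMIs in the members.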

How the data were processed

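Single-cell RNA of 1 WT and 1 ZNF263 KO library of H1 cells was analysed. What the authors deposited are raw UMI counts for each gene in each barcode. Tools named in the submitters' processing notes are STAR 2.7.10a, featureCounts 2.0.1 with Subread, and UMI-tools 1.1.2, on hg38. Their roles, the gene annotation and a filter on barcodes are not stated in what was used here. The KO matrix held 15 entries beyond its stated size, which were kept. Cytochrome c oxidase and cytochrome b genes, listed as MT-COX1 to MT-COX3 and MT-CYTB, are named by their official symbols.

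UMIs were summed over barcodes and scaled without MT- genes. Ratios have exact conditional binomial intervals and shares Clopper-Pearson intervals, at 95%, for counting error only, since PCR and capture also vary. Genes needed a mean of at least 20 CPM over the 4 sums, and list members 5 CPM. The share of 41 lists' entries found was 1172 of 1179. Named genes are the 10 highest and 10 lowest called, ranked by the smaller of their 2 sizes, up to 4 a list ranked likewise, 6 and 6 for KO over WT, and ZNF263, POU5F1, NANOG, SOX2 and MALAT1; others are said to be chosen after their values were seen or complete a count of 5 or fewer. Results for 2 named genes and 1 list are not reported here. The members and lists were chosen with earlier results of these data known. On simulated counts for members over reference, 96% of 5839 unchanged genes' intervals held the true value, and 52% of 50 genes changed 0.5-fold and 76% of 50 changed 2-fold were called in both libraries. Transcript features are those of the longest protein-coding transcript of each gene in GENCODE release 29, and gene positions are from RefSeq (GRCh38.p14). Python 3.11.15, NumPy 2.4.6, SciPy 1.17.1 and pandas 2.3.3 were used.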

Additional observations from a re-analysis of the deposited data

Results flagged for a closer look

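Genes of the endoplasmic reticulum stress response, summed over the list, were higher in the WT members than in their reference, at a log2 ratio of 0.11 (0.03 to 0.18), and lower in the KO members, at -0.083 (-0.16 to -0.011). The 2 libraries lie on opposite sides of 0, and the difference between them was not tested. Among 19 measured genes 0 were called in either direction in both libraries, where 1.71% of all genes at that level were called higher and 1.81% lower. MANF, a secreted factor induced by unfolded proteins, stood at 0.61 (0.14 to 1.05) in WT and 0.26 (-0.24 to 0.72) in KO. PDIA6, a disulfide isomerase, stood at -0.56 (-0.91 to -0.23) and -0.23 (-0.52 to 0.04), so the direction of the list was not that of each gene.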

How the results depend on the processing

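No paired analysis was possible because each genotype has 1 library. The alternatives changed the barcodes, totals, weights, filters or centring 1 at a time. Of 185 values of named genes in a library, 127 kept their direction in each alternative run, as did 31 of 74 list medians, and 2418 of 2487 and 962 of 1075 single values did.

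Restricting to at least 20% mitochondrial UMIs, which leaves 47 WT and 50 KO barcodes, changed the most. Of 6172 genes it gave 804 at least 1.5-fold higher and 402 lower, in the place of 83 and 182 of 5977. The members then held only 26248 WT and 27062 KO nuclear UMIs. A few UMIs thus decide whether a thinly counted gene passes 1.5-fold, and these counts are not read as a shift in expression. List medians in WT and KO were then -0.16 and 0.014 for complex I, -0.15 and -0.11 for complexes II to IV, -0.21 and -0.14 for ATP synthase and 0.0015 and -0.017 for ribosomal proteins, and -0.000267 in KO for S phase. They were -0.10 and -0.20 for snoRNA host genes, and in WT -0.010 for the mitochondrial ribosome and -0.12 for oxidative stress genes. Of respiratory genes, WT turned to -1.17 for NDUFA11, -0.49 for NDUFB9, -0.043 for NDUFB7 and -0.86 for ATP5MC3. KO turned to -0.12 for NDUFB7, -0.28 for NDUFS3, -0.11 for COX6A1, -0.064 for COX4I1, -0.79 for UQCRQ, -0.16 for ATP5MC3 and -0.35 for ATP5IF1. Of other genes, WT turned to -0.060 for MRPL52, -0.0057 for MRPL57, 0.012 for HSPD1, 0.51 for RBM25, 0.23 for PDIA6, 0.25 for H4C3, 0.15 for UBTF, 0.47 for IGF2BP1, 0.45 for LIX1, 1.07 for ENC1, 0.12 for TOPORS, 0.19 for IGF2BP3, 1.25 for LCK, 1.23 for MAT2A, 0.74 for B3GALT5-AS1, -0.35 for SNHG25, -0.15 for MANF and -0.028 for PCK2. In KO values turned to -0.12 for TUFM, -0.35 for LINC00678, 0.49 for RBM25, -0.28 for SNHG1, 0.44 for CLSPN, 0.52 for USP1, 1.02 for HMGCS1, -0.17 for THY1, -0.070 for PIF1, 0.62 for MAN1A2, 0.19 for SBDS, 0.59 for EPB41, 0.12 for PRTG, 0.010 for ENC1, 0.40 for EIF4B, 0.31 for H4C3, 0.34 for HMGN2 and 0.036 for IGF2BP1. LCK in KO over WT turned to -0.044. The shares of barcodes were 0.285% and 0.352%, the ratios of median nuclear UMIs 0.783 and 0.804, and KO over WT counted 36 genes higher and 38 lower, in the place of 108 and 370. Fewer barcodes widen every interval. Summed ribosomal proteins at 20% or more were at 0.01 (-0.02 to 0.05) in WT and -0.01 (-0.05 to 0.02) in KO. These intervals lie below the sums over all members, 0.12 and 0.13. The cause of the shifts was not tested.

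With at least 1000 UMIs, counts were 144 and 284, the shares of barcodes 4.45% and 8.33% and the depth ratios 1.02 and 1.06. WT medians were 0.27 for complexes II to IV, -0.39 for S phase, -0.25 for G2 and M phase and -0.63, in place of 0.68, for the 4 measured primitive streak genes. The KO median for G2 and M phase was -0.13, in place of -0.34. MIAT in WT was at -0.034. With at least 500 nuclear UMIs the WT share was 2.19% and the depth ratios 1.22 and 1.38. Counts were 352 and 549 at a mean of at least 5 CPM and 6 and 19 at 100 CPM, with 0.015 for the citrate cycle in WT, where more or fewer thinly counted genes enter.

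Totals without ribosomal protein genes gave 138 genes higher and 205 lower, medians of 0.24 for complexes II to IV and 0.17 for ribosomal proteins in WT and 0.25 for ATP synthase in KO, and 172 genes higher in KO over WT. Centring on all genes gave 0.25 for complexes II to IV and 0.18 for ribosomal proteins in WT, and 0.30, 0.29 and 0.20 for complex I, ATP synthase and ribosomal proteins in KO. Against all barcodes under 10%, ribosomal proteins in WT were at 0.087, and with equal weight per barcode complexes II to IV in WT at 0.14.

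Of the 2 settings chosen after seeing the data, the pool of barcodes with 10 to 100 UMIs as reference gave 0.081 and 0.083 for ribosomal proteins and -0.27 for G2 and M phase in WT. Centring on genes of like GC and length gave 74 genes lower, 0.060 and 0.049 for ribosomal proteins, -0.21 for G2 and M phase in WT, and 0.079, -0.086 and -0.020 for ATP synthase, S phase and splicing regulators in KO, with -0.0090 for oxidative stress genes in WT and 0.027 and 0.092 for RBM25. The cause of these shifts was not tested.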
